A study of Mus musculus with 6 samples.

Results

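Germ granules are bodies of RNA and protein in the cytoplasm of germ cells, and the Tudor domain proteins described here are among their scaffolds and enzymes. A Tudor domain is a small fold that binds methylated arginine or lysine, and in germ granules it holds PIWI proteins through their methylated arginines. PIWI proteins carry piRNAs, short RNAs that silence transposons, and most of what is known of these Tudor proteins in the mouse comes from the testis. The 8 genes were taken by name from the gene count table, as germline Tudor domain proteins: Tdrd1, Tdrd5, Tdrd6, Tdrd7, Tdrd9, Tdrd12, Tdrkh and Rnf17. All 8 were among the 25239 rows of the table, and all 8 passed the filter on low counts that left 14849 genes for testing. Their exonic lengths ran from 3472 bases for Tdrd5 to 7062 bases for Tdrd6, in 5 (Tdrd6) to 37 (Rnf17) merged exons.

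The samples were 6 bulk RNA-seq libraries made from the ovary of C57BL/6 mice. All were of E18.5, an embryonic stage near birth when oocytes are late in meiotic prophase. Of these, 3 were WT and 3 were Hnrnpl-null by genotype label. Hnrnpl encodes an RNA-binding protein that regulates splicing. The titles of the Hnrnpl-null libraries carry the unexplained abbreviation CKO, and no treatment is given. No sample label names a Cre driver, the deleted exons or whether animals were pooled. The deposited counts carry stra8 in their name, which is also unexplained. Ovaries were dissociated with Liberase and DNase, and although the cell type is labelled as oocyte, no sort is named. Foxl2, a defining marker of pregranulosa cells, was present at 25.5 ± 2.26 CPM (SD, n = 3) in WT, beside the germ cell markers given later. CPM is a count relative to the library size after TMM scaling. The labels leave it unsaid whether replicates are different animals, and the p-values therefore reflect only library-to-library spread, some of which may be technical.

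Total counts ran from 8949781 to 22401419 per library. The 45S pre-ribosomal RNA gene Rn45s made up 83.0% (WT replicate 1) and 86.1% (Hnrnpl-null replicate 3) of all counts, while its share in the other 4 libraries was 18.6% to 36.0%. Hnrnpl-null replicate 3 had the fewest counts outside Rn45s, 1757572, and only 278 counts over the 8 Tudor genes together, against 1815 to 5448 in the other libraries. Of gene counts of at most 20 and above 0, 93.4% to 98.4% per library were even, as when each mate of a read pair is counted, so the number of fragments is near to the count divided by 2. Hnrnpl itself was at 162 ± 14.8 CPM in the WT libraries, and 184 ± 25.5 CPM in those of Hnrnpl-null (SD, n = 3 each), edgeR adjusted p = 0.50, so this gene-level count does not check the labels.

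The germ granule Tudor genes were lower in the Hnrnpl-null libraries, apart from Tdrkh and Tdrd6, which were not called. Of the 8 genes, 6 were lower and 0 were higher by the edgeR quasi-likelihood test at a Benjamini-Hochberg adjusted p below 0.05. Over all 14849 genes tested, 1.79% were lower and 2.67% were higher by the same rule. Tdrd1 had the largest fall of the 8, to 22.6% of WT, while the other 5 called genes were at 42.3% to 55.1% of WT. The median log2 fold change of the 8 was -1.14, beside -0.01 over all genes tested. With DESeq2, 6 of the 8 were lower, and with limma-voom 7 were, with 0 higher by either. Leaving out 1 library at a time gave 4 to 7 lower genes, with 4 without WT replicate 3 or Hnrnpl-null replicate 2 and 7 without Hnrnpl-null replicate 3. Without both libraries richest in Rn45s, 6 of 8 were lower. All 6 called genes also had groups that did not overlap, where 13.2% of all tested genes had every Hnrnpl-null library below every WT library. In bulk samples, fewer germ cells and less of these RNAs per germ cell cannot be told apart.

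**Figure D1:**
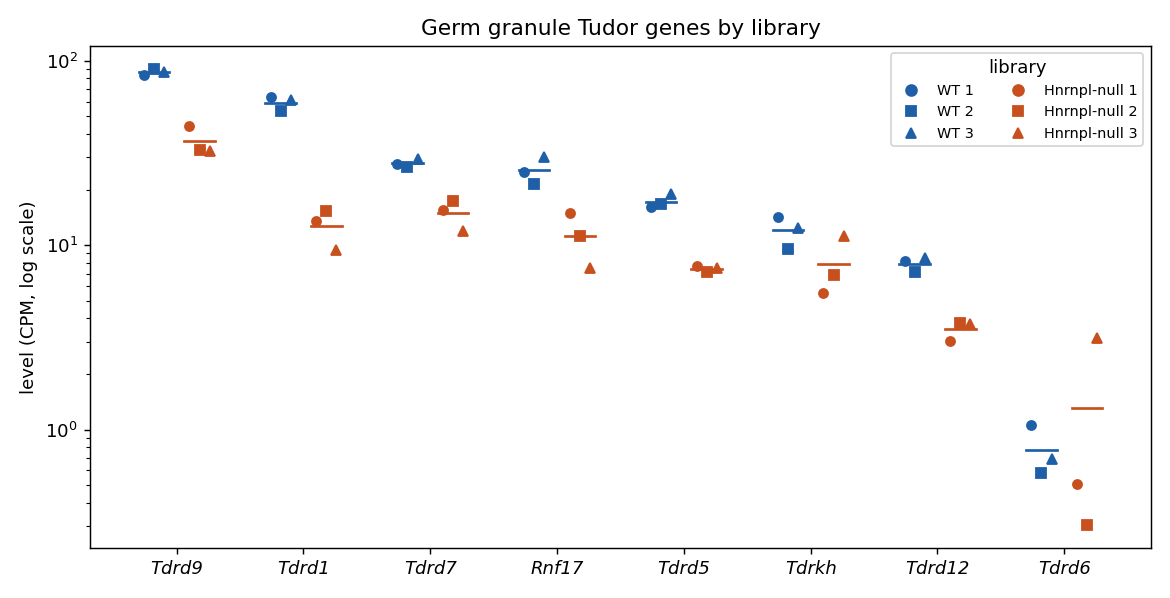
Level of each germ granule Tudor gene in each library, in CPM on a log axis; symbols are replicates, short lines are group means over 3 libraries. For 6 of the 8 genes every Hnrnpl-null library lies below every WT library, while Tdrkh and Tdrd6 overlap between groups.

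Among the scaffold proteins, Tdrd1 (chromosome 19, 56826209 to 56870012, mm10, plus strand) binds the PIWI protein made by Piwil2 and sits in the material between clustered mitochondria. Its level was 63.1, 53.2 and 61.2 CPM in the WT libraries (replicates 1 to 3, as for every gene), and 13.6, 15.4 and 9.36 CPM in those of Hnrnpl-null. The lowest WT library was thus well above the highest Hnrnpl-null library, and the groups did not overlap. The log2 fold change was -2.15 ± 0.16 (SE), with a 95% interval of -2.50 to -1.80 and an edgeR adjusted p of 3.8e-06. It was called in each of the 17 alternatives run, with log2 fold changes of -2.29 to -1.98. The Hnrnpl-null value of replicate 3 rests on 30 counts.

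Tdrd9 (chromosome 12, 111971559 to 112068854, plus strand) encodes an ATP-dependent helicase that joins Tudor and helicase domains and is needed in male germ cells to silence retrotransposons. It had the highest level per length of the 8, as given later, and was at 83.8, 90.3 and 86.4 CPM in WT and 44.0, 32.8 and 32.5 CPM in Hnrnpl-null. The WT libraries lay close together, and all 3 Hnrnpl-null libraries were far below them. The log2 fold change was -1.24 ± 0.13 (SE, edgeR adjusted p = 1.0e-04), and it too was called in each of the 17 alternatives.

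The sequence around the annotated starts of Tdrd1 and Tdrd9 is shown because these genes had the largest fall and the highest level per length, and because their promoters share a motif. RefSeq windows of GRCm38.p6, running from 250 bases before to 50 bases after a start, were at hand for 6 of the 8 genes (11 windows). The E-box CACGTG, read on both strands, was in windows of Tdrd1 and Tdrd9 and in none of the windows of the other 4; the 2 Tdrd1 windows that hold it share 1 site. It was in 7.15% of all 32851 windows and in 11.3% of the 11765 windows with an observed to expected CpG ratio of at least 0.6. At gene level, 8.09% of 27025 genes had it, beside 8 of the 14 piRNA pathway partners with a window, of which Ddx25, Ddx4, Fkbp6, Mael and Mov10l1 were called lower and Piwil1, Pld6 and Dnmt3l were not. Asz1, Exd1, Fkbp4, Henmt1 and Piwil4 had windows without it and were not called. The called partners Piwil2, Tex15 and Gtsf1 were not among those with it. The partners were chosen with earlier results of these data known, and whether the E-box goes with a fall was not tested. CpG ratios were 0.733 in the Tdrd1 window shown, 0.43 in that of Tdrd9 and 0.956 in that of Tdrkh, against a median of 0.384. Tdrkh, which was not called, is shown beside them. Tdrd5, Tdrd7 and Tdrd12, whose windows also lacked CACGTG, were called lower. The CCAAT box (CCAAT on either strand) was in windows of Tdrkh, with 5 copies, and of Tdrd9, with 2 copies, and in 37.4% of all windows. GGGCGG was in windows of Tdrd12, Tdrd7 and Tdrkh (35.7% of all windows), TATAAA in windows of Tdrd1 and Tdrd7 (13.6%), and AACCGTT, a MYB-type site, in none of the 11 (0.913%). Only that exact spelling was searched for, so other forms of a MYB site may be present. The E-box and CCAAT letters do not overlap in the windows shown. These matches describe letters in a window and were not tested for binding. In the windows below, each read 5′ to 3′ along the gene, capitals mark CACGTG in Tdrd1 and Tdrd9 and CCAAT or its reverse complement in Tdrkh; the CCAAT copies of Tdrd9 are left in lower case.
Tdrd1, chr19:56825959-56826258, plus strand: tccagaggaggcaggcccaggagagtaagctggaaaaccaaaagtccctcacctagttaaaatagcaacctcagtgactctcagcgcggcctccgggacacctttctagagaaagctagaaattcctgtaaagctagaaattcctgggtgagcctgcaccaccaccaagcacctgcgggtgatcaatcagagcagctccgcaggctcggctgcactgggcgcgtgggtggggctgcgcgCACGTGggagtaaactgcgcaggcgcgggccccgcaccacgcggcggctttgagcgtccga
Tdrd9, chr12:111971309-111971608, plus strand: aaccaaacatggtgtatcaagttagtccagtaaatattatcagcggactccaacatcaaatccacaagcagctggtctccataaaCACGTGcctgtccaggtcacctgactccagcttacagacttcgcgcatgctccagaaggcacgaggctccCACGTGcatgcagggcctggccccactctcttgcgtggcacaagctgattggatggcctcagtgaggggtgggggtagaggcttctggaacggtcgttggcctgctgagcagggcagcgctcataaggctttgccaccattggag
Tdrkh, chr3:94412994-94413293, plus strand: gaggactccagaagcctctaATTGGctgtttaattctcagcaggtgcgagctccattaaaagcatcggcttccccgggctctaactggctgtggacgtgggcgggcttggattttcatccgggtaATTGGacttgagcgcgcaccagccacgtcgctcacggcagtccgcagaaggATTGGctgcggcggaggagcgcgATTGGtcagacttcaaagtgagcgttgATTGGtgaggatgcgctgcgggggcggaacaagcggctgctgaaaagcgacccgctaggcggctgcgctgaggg
The E-box of Tdrd1 begins 11 bases before the annotated start, and those of Tdrd9 begin 165 and 95 bases before it.

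Tdrd12 (chromosome 7, 35466941 to 35537744, minus strand) encodes the other helicase-like Tudor protein, which acts in the loading of piRNAs made by secondary biogenesis in male germ cells. It was at 8.16, 7.12 and 8.46 CPM in WT and 3.03, 3.80 and 3.74 CPM in Hnrnpl-null. The groups did not overlap, but levels were low, with 357 counts over the WT libraries and 184 over the Hnrnpl-null libraries. Its log2 fold change was -1.18 ± 0.27 (SE, edgeR adjusted p = 0.027). The result no longer passed when any 1 library except Hnrnpl-null replicate 3 was left out (adjusted p by edgeR from 0.0855 to 0.11). It also failed with the replicate number as a block (edgeR adjusted p = 0.069). Nor did it pass with libraries scaled to totals outside Rn45s without TMM (edgeR adjusted p = 0.066). The log2 fold change nonetheless stayed between -1.27 and -1.06.

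The LOTUS and Tudor domain proteins Tdrd5 and Tdrd7 both fell. Tdrd5 (chromosome 1, 156255296 to 156303606, minus strand) is needed for piRNA production and retrotransposon silencing in the testis. It was at 16.0, 16.7 and 18.9 CPM in WT and 7.66, 7.15 and 7.49 CPM in Hnrnpl-null. The Hnrnpl-null libraries differed little from each other and all were below WT, although the value of Hnrnpl-null replicate 3 rests on 24 counts. The log2 fold change was -1.21 ± 0.19 (SE, edgeR adjusted p = 0.0021), called in each of the 17 alternatives. Tdrd7 (chromosome 4, 45965335 to 46034765, plus strand), a component of the chromatoid body of spermatids that is also needed in the lens, went from 27.4, 26.6 and 29.2 CPM in WT to 15.4, 17.3 and 11.9 CPM in Hnrnpl-null. Its groups did not overlap, and the log2 fold change was -0.86 ± 0.16 (SE, edgeR adjusted p = 0.0084). The call was lost only when libraries were scaled to their totals outside Rn45s without TMM (edgeR adjusted p = 0.070).

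Rnf17 (chromosome 14, 56402697 to 56525031, plus strand) encodes a RING finger and Tudor protein that restrains piRNA cycling between PIWI proteins in male germ cells. It was at 25.0, 21.5 and 29.9 CPM in WT and 14.9, 11.2 and 7.49 CPM in Hnrnpl-null. The groups did not overlap, but both were spread more widely than those of Tdrd5, and the value of Hnrnpl-null replicate 3 rests on 24 counts. The log2 fold change was -1.11 ± 0.22 (SE, edgeR adjusted p = 0.010). The result no longer passed without WT replicate 3 or Hnrnpl-null replicate 2 (adjusted p by edgeR of 0.0643 and 0.0671).

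Tdrkh (chromosome 3, 94413244 to 94432650, plus strand), which joins KH and Tudor domains, is tethered to mitochondria and helps trim piRNA ends, was not called. It was at 14.2, 9.52 and 12.4 CPM in WT and 5.47, 6.84 and 11.2 CPM in Hnrnpl-null. WT replicate 2 was below Hnrnpl-null replicate 3, whose value rests on 36 counts, so the groups overlapped. The log2 fold change was -0.71 with a 95% interval of -1.30 to -0.12 (edgeR adjusted p = 0.18). Without Hnrnpl-null replicate 3 it was -0.94 and called (edgeR adjusted p = 0.034), and limma-voom called it with all 6 libraries (adjusted p = 0.035).

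Tdrd6 (chromosome 17, 43615335 to 43630299, minus strand), a large scaffold of the chromatoid body, was close to the limit of detection. It had 8, 14 and 10 counts in WT and 12, 8 and 10 counts in Hnrnpl-null, or 1.05, 0.58, 0.688 and 0.505, 0.304, 3.12 CPM. The highest CPM came from the 10 counts of Hnrnpl-null replicate 3, and the groups overlapped. The log2 fold change was 0.33 with a 95% interval of -1.67 to 2.33 (edgeR adjusted p = 0.89), and it was -0.88 without Hnrnpl-null replicate 3, so no direction can be given at this depth.

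Per length of transcript, Tdrd1 was above Tdrd7 in WT and below it in Hnrnpl-null. Tdrd5 and Rnf17, whose levels overlapped in both groups, also changed places. RPKM here is CPM divided by the exonic length in kilobases that the table gives. In WT the RPKM level was 18.1 ± 0.685 for Tdrd9, 10.9 ± 0.974 for Tdrd1, 7.00 ± 0.346 for Tdrd7, 4.96 ± 0.422 for Tdrd5 and 4.95 ± 0.821 for Rnf17 (SD, n = 3). Below them were Tdrkh at 2.90 ± 0.569, Tdrd12 at 1.23 ± 0.11 and Tdrd6 at 0.11 ± 0.0351 RPKM. In that order only Tdrd5 and Rnf17 were neighbours whose libraries overlapped. In Hnrnpl-null, Tdrd9 was again highest at 7.58 ± 1.36 RPKM, followed by Tdrd7 at 3.75 ± 0.697 RPKM. Tdrd1 was the third at 2.34 ± 0.565 RPKM, and its libraries overlapped those of Rnf17 (2.18 ± 0.724 RPKM), Tdrd5 (2.14 ± 0.0754 RPKM) and Tdrkh (1.89 ± 0.725 RPKM). Of the counts over the 8 genes, Tdrd1 held 26.4%, 23.6% and 24.8% in WT and 13%, 16.2% and 10.8% in Hnrnpl-null, whereas Tdrd5 held 6.72% to 7.63% and 7.33% to 8.63%.

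**Figure D2:**
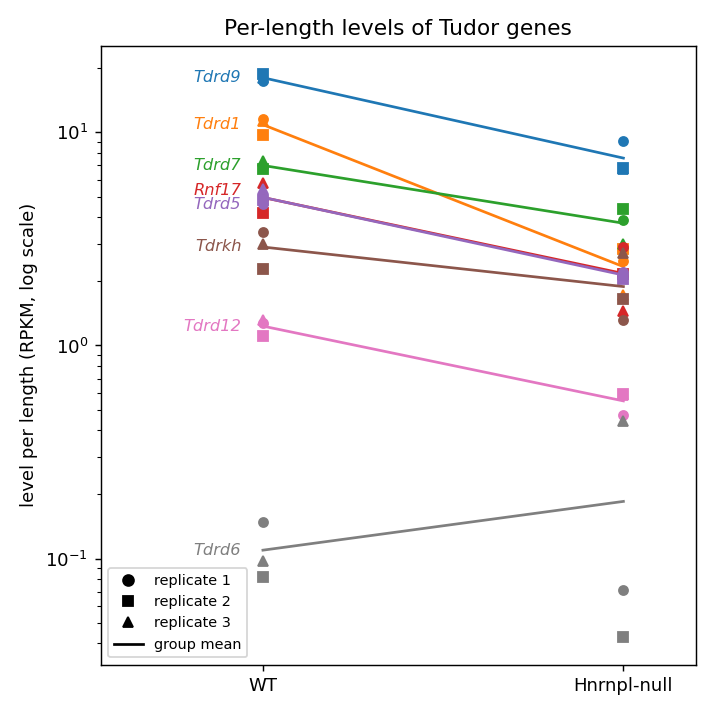
Per-length level in RPKM, on a log axis, of each Tudor gene in WT and Hnrnpl-null; symbols are replicates and lines join group means over 3 libraries. The line of Tdrd1 falls from 10.9 to 2.34 RPKM and crosses that of Tdrd7, which falls from 7.00 to 3.75 RPKM.

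Of 11 germ cell markers, 7 were lower in Hnrnpl-null and 0 higher, and their falls differed in size. Over all genes tested, 1.79% were lower and 2.67% higher. Ddx4, the germ cell RNA helicase, was at 22.6 ± 2.66 CPM in the WT libraries, and 11.3 ± 4.67 CPM in those of Hnrnpl-null (SD, n = 3 each), which is a fitted change of -0.90 on the log2 scale (edgeR adjusted p = 0.044). Its result no longer passed without any 1 WT library or Hnrnpl-null replicate 2 (adjusted p by edgeR from 0.066 to 0.16). Nor did it pass with the replicate number as a block (edgeR adjusted p = 0.057). With totals outside Rn45s without TMM it failed too (edgeR adjusted p = 0.13). Dazl, a germ cell translation regulator, went from 57.8 ± 5.41 to 33.4 ± 8.39 CPM, which is a fitted change of -0.83 on the log2 scale (edgeR adjusted p = 0.0096). Its result no longer passed when WT replicate 3 or one of Hnrnpl-null replicates 1 and 2 was left out (adjusted p by edgeR from 0.054 to 0.073). Larger falls were seen for Sycp3, a protein of the axial elements of meiotic chromosomes (18.4 ± 4.39 to 5.40 ± 1.94 CPM, 26.8% of WT), and Figla, an oocyte transcription factor (to 3.72 ± 1.66 CPM, 29.9% of WT), by edgeR (adjusted p of 0.0012 and 0.0058). Dppa3, an oocyte and early embryo factor, was at 3.73 ± 1.53 CPM in WT and had 2, 2 and 0 counts in Hnrnpl-null replicates 1 to 3. Sycp1, of the central synaptonemal complex, and Mael fell to 52.2% and 51.6% of WT. Kit encodes the receptor for Kitl, and bulk samples do not tell which cells its RNA came from. It was the most abundant of the 11 by CPM, with 96.8 ± 4.92 CPM in WT against 88.6 ± 3.92 CPM in Hnrnpl-null. It was not called, and nor were Taf4b, Dnd1 and Nanos3. Figla no longer passed without Hnrnpl-null replicate 2 (edgeR adjusted p = 0.053). The exons of Sycp3 overlap those of Chpt1. Over the 11 the median of the log2 fold changes was -0.90, and 3 or 4 were lower without Hnrnpl-null replicate 2 or WT replicate 3. Their summed level was 276 to 310 CPM in the WT libraries, and 177 to 197 CPM in those of Hnrnpl-null. None of the 11 was at 0 in all libraries. The summed level of 10 leukocyte markers was 59.3 to 66.2 CPM in the WT libraries, and 567 to 679 CPM in those of Hnrnpl-null, with 6 of 9 tested higher (Mpo, Myb, Coro1a, Laptm5, Ptprc and Spi1). Mpo, a granule enzyme of neutrophil precursors, made up most of that rise, at 0.437 ± 0.153 and 451 ± 63.8 CPM. Without Mpo, a sum formed after its level was seen, the other 9 markers came to 58.8 to 65.9 and 157 to 169 CPM. The macrophage markers Csf1r, C1qa and Lyz2 were not called, with log2 fold changes of 0.54, -0.25 and 0.14. Summed levels of 10 pregranulosa markers were 702 to 760 CPM in the WT libraries, and 731 to 814 CPM in those of Hnrnpl-null, with 1 of 10 higher (Kitl, log2 fold change 1.15), while Irx3 (-0.55) and Nr5a2 (1.44) were not called. The part of these shifts in cell markers in the Tudor gene results was not tested beyond the ratios that follow.

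To set the Tudor genes beside germ cell RNA within a library, each count was divided by the summed count of Ddx4 and Dazl, a ratio that does not depend on library scaling. For Tdrd1 the ratio was 0.842, 0.695 and 0.684 in WT and 0.306, 0.379 and 0.19 in Hnrnpl-null. The groups did not overlap, and the difference of mean log2 ratios was -1.39, a ratio 0.381 times that of WT. An exact two-sided permutation test gave p = 0.10, the smallest value that 3 against 3 libraries allow, and 0.40 after Benjamini-Hochberg adjustment over the 8 genes. Without Hnrnpl-null replicate 3 the difference for Tdrd1 was -1.11, and without both libraries richest in Rn45s it was -1.02. Tdrd5 was the other gene whose groups did not overlap, with ratios of 0.21 to 0.219 in WT and 0.152 to 0.177 in Hnrnpl-null and a difference of -0.36 (exact permutation p = 0.10, adjusted 0.40). The share of all genes tested with groups apart on this scale was not computed, so these non-overlaps have no background beside them. The remaining 6 genes overlapped between groups on this scale, with differences of -0.42 for Tdrd9, -0.38 for Rnf17, -0.32 for Tdrd12, -0.07 for Tdrd7, 0.18 for Tdrkh and 0.91 for Tdrd6 (exact permutation p of 0.20 to 0.90). The difference for Rnf17 came to -0.047 without Hnrnpl-null replicate 3 and -0.0066 without both libraries richest in Rn45s, and that for Tdrd9 to -0.27 and -0.25. A change of reference shifts the difference of every gene by the same amount. With the summed count of all 11 germ cell markers as the reference, Kit being the most abundant, all 8 differences were therefore lower together. Among them were -1.61 for Tdrd1, -0.64 for Tdrd9, -0.60 for Rnf17, -0.58 for Tdrd5, -0.54 for Tdrd12 and -0.29 for Tdrd7. Under that reference Tdrd1, Tdrd5, Tdrd9 and Tdrd12 had the smallest exact permutation p, 0.10. None of the 8 could pass a threshold of 0.05 in this test.

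**Figure D3:**
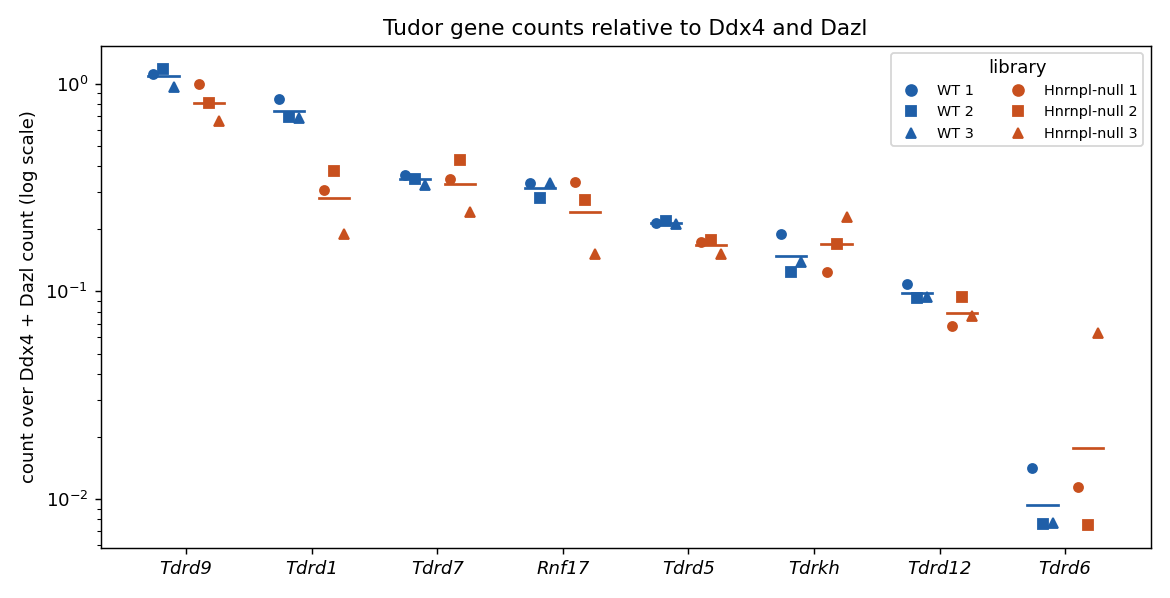
Count of each Tudor gene divided by the summed count of Ddx4 and Dazl in the same library, on a log axis; symbols are replicates and short lines are means of the log2 ratios over 3 libraries. Tdrd1 lies at 0.684 to 0.842 in WT and 0.19 to 0.379 in Hnrnpl-null, while Tdrd7, Tdrkh and Tdrd12 overlap between the groups.

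Some of the genes for PIWI proteins and for enzymes and helpers of the piRNA pathway were lower too. Of 19 tested genes in a list of 21 piRNA pathway partners, 8 were lower and 0 higher, with a median log2 fold change of -1.03. Over all genes tested, 1.79% were lower and 2.67% higher. The count of lower partners was 10 with DESeq2 or limma-voom, and 5 without any 1 WT library or Hnrnpl-null replicate 2. Piwil2, the PIWI partner of Tdrd1, fell from 83.8 ± 2.52 to 31.0 ± 2.80 CPM (log2 fold change -1.42, edgeR adjusted p = 7.9e-06). Mov10l1, the RNA helicase that feeds precursors into the pathway, had a log2 fold change of -1.38, Tex15 of -1.31 and Fkbp6, a co-chaperone of PIWI loading, of -1.21. The other called partners were Mael (log2 fold change -0.95), Ddx4, Ddx25 (-1.03) and Gtsf1, and Ddx25 no longer passed when any 1 library except Hnrnpl-null replicate 3 was left out. Ddx4 and Mael are also on the list of germ cell markers, so their calls are in both counts. Gtsf1 stood at 2.21 ± 0.775 CPM in the WT libraries, and 0.396 ± 0.205 CPM in those of Hnrnpl-null, and its result no longer passed when any 1 library except Hnrnpl-null replicate 3 was left out. Neither Ddx25 nor Gtsf1 passed with the replicate number as a block or with totals outside Rn45s without TMM. The fetal PIWI gene Piwil4 was at 1.28 ± 0.492 and 0.301 ± 0.343 CPM and Pld6, the mitochondrial nuclease of piRNA processing, at 7.56 ± 1.18 and 2.83 ± 1.46 CPM, and neither was called (adjusted p by edgeR of 0.28 and 0.050). Dnmt3l had 0 counts in all 6 libraries. The general chaperone genes Hsp90aa1 and Fkbp4 had log2 fold changes of 0.09 and 0.07.

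**Figure D4:**
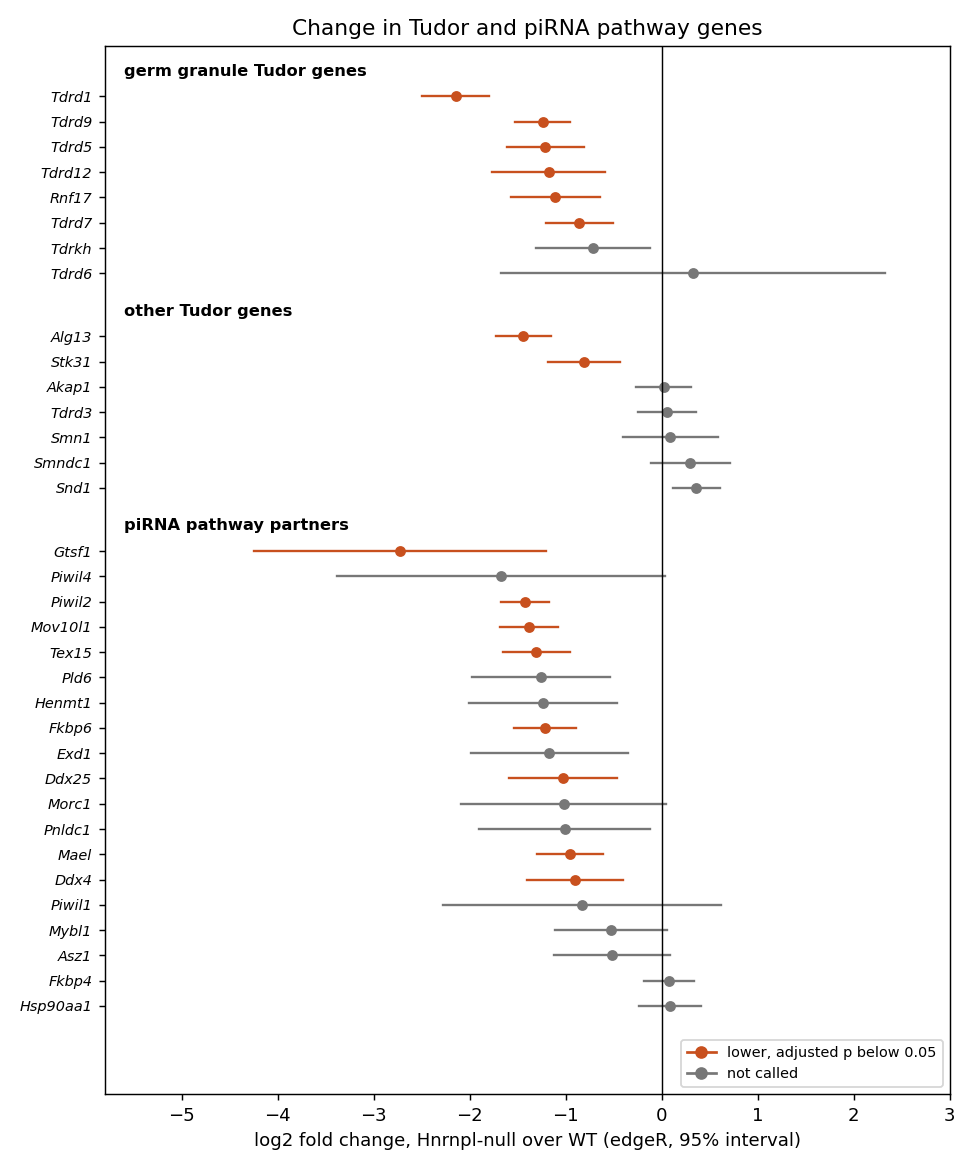
Log2 fold change of Hnrnpl-null over WT with its 95% interval (edgeR, 3 libraries a group) for the 8 germ granule Tudor genes, 7 other Tudor genes and 19 piRNA pathway partners; orange marks genes lower at an adjusted p below 0.05. Tdrd1 at -2.15 is the lowest of the Tudor genes, and Hsp90aa1 and Fkbp4 lie near 0.

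Tudor domain genes outside the germ granule set mostly did not pass the test. Of 7 such genes tested (median log2 fold change 0.05), 2 were lower and 0 higher, beside 1.79% and 2.67% of all genes tested. They were Stk31, a Tudor and kinase domain protein of germ cells, which was at 34.7 ± 5.47 CPM in WT and had a log2 fold change that came to -0.81 ± 0.18 (SE, edgeR adjusted p = 0.020), and Alg13, which pairs a Tudor domain with a glycosyltransferase domain and fell from 122 ± 16.8 to 44.7 ± 5.22 CPM (edgeR adjusted p = 2.4e-05). The result for Stk31 no longer passed on leaving out Hnrnpl-null replicate 2 or one of WT replicates 2 and 3 (adjusted p by edgeR from 0.074 to 0.11). It did not pass with totals outside Rn45s without TMM either (edgeR adjusted p = 0.078). Snd1, a widely expressed Tudor nuclease, was at 88.9 ± 9.16 and 114 ± 6.10 CPM, which did not pass by edgeR (adjusted p = 0.098), while DESeq2 and limma-voom each called 1 gene of this list higher. Tdrd3, Akap1, Smn1 and Smndc1 had log2 fold changes of 0.05, 0.02, 0.09 and 0.30.

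Of 15 chromatin proteins with Tudor domains, 1 was higher (Lbr, log2 fold change 0.56, edgeR adjusted p = 0.044) and 0 were lower, with a median of -0.04. At an unadjusted edgeR p below 0.05 were 2 of the 15, beside 2746 of all 14849 genes tested. DESeq2 and limma-voom each called 1 lower. The Lbr result no longer passed when replicate 2 or 3 of WT, or 1 or 2 of Hnrnpl-null, was left out (adjusted p by edgeR from 0.12 to 0.21). Phf20 had a log2 fold change of -0.62 and Kdm4c of -0.33 (adjusted p by edgeR of 0.056 and 0.32). Of 5 genes of the arginine methylation complex that makes the mark Tudor domains bind, 0 passed with any of edgeR, DESeq2 and limma-voom, and 0 had an unadjusted edgeR p below 0.05. Prmt5, its methyltransferase, was at 23.7 ± 2.97 CPM in the WT libraries, and 28.8 ± 3.05 CPM in those of Hnrnpl-null, Wdr77 at 26.1 ± 3.05 and 28.7 ± 3.16 CPM (its exons overlap those of Atp5pb), and Riok1 at 8.04 ± 3.31 and 10.6 ± 1.82 CPM.

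Genes whose levels ran most like the mean of the 8 Tudor genes were sought among 9920 genes with a mean of at least 5 CPM. By Pearson's r of log2(CPM + 1) over the 6 libraries, the nearest included Taf7l (0.998), a TFIID subunit of germ cells, Trim24 (0.995), Esrp1 (0.995), an epithelial splicing regulator, and Myo9a (0.992). Values over 6 libraries in 2 groups follow mainly the group difference and are a description. Taf7l went from 45.6 ± 5.05 to 21.8 ± 0.612 CPM (log2 fold change -1.07, edgeR adjusted p = 3.9e-04) and Esrp1 from 58.1 ± 5.16 to 18.7 ± 1.71 CPM (log2 fold change -1.64, edgeR adjusted p = 7.9e-06). Trim24 (log2 fold change -0.32) and Myo9a (-0.38) were not called. Among the 8 themselves, Tdrd1, Tdrd5, Tdrd7, Tdrd9, Tdrd12 and Rnf17 had pairwise r of 0.84 to 0.99 over the 6 libraries. Tdrkh had r of 0.40 to 0.78 with these 6, and Tdrd6 of -0.48 to -0.10. With group means removed, r among the 6 called genes ran from -0.86 (Tdrd9 with Tdrd12) to 0.96 (Tdrd1 with Tdrd7).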

How the data were processed

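The authors deposited raw counts per gene for 6 libraries, with exon coordinates and exonic lengths, in the layout of featureCounts per the file headers. The deposited Length column holds exonic bases; other values are counts. The build mm10 and the tools featureCounts 2.0.6, HISAT2 2.2.1 and STAR 2.7.11a appear in the submitters' processing notes, without their roles. Not given in the sources used here: annotation, strand setting, treatment of multi-mapping reads. No exon of the 8 Tudor genes overlapped another gene of the table.

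The test was that of edgeR 4.0.16 under R 4.3.3 (filterByExpr, TMM, glmQLFit, glmQLFTest, two-sided, genotype as the only term, 6 libraries, Benjamini-Hochberg over 14849 genes, called below 0.05). Standard errors come from the F statistic, and intervals are 95%. Intervals cover the spread between libraries. The code was checked on simulated counts. Alternatives were DESeq2 1.42.0, limma-voom (limma 3.58.1), other scalings, filters, a stricter threshold, halved counts, left-out libraries and the replicate number as a block. Promoter windows are RefSeq's, GRCm38.p6. Every pair of replicates differed beyond counting noise (on halved counts, chi-square was at least 5.62 times its degrees of freedom).

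The 8 genes and the lists (piRNA partners, other and chromatin Tudor genes, arginine methylation, RNA granule genes, markers of germ, pregranulosa, leukocyte, endothelial and stromal cells) were chosen with earlier results of these data known. Named genes are the 8, Hnrnpl, Ddx4, Dazl, the called genes and 3 smallest p of the lists used, and the 5 most similar profiles, of which 1 is not reported here; others (such as Hsp90aa1, Piwil4, Foxl2, Kit and other uncalled list genes) were named after their values were seen.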

Additional observations from a re-analysis of the deposited data

How the results depend on the processing

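The count of lower Tudor genes (6) ranged from 4 to 7 over 17 alternatives, with 4 under totals outside Rn45s without TMM or an adjusted p below 0.01, and 0 were higher in each. The median of all genes moved by less than 0.1 (log2) under each scaling. Over all genes, lower and higher calls were 266 and 397, against 443 and 643 with DESeq2, 498 and 775 with limma-voom, 132 and 124 with totals outside Rn45s, 471 and 633 with no filter, 89 and 147 at an adjusted p below 0.01, and 104 to 321 and 145 to 532 with 1 library left out. Lower piRNA partners (8) were 5 with totals outside Rn45s, with the replicate block or at 0.01, and 5 to 10 with 1 library left out. With DESeq2 or limma-voom 1 of the other Tudor genes was higher in place of 0. These genes were 1 lower in place of 2 with totals or at 0.01, and 1 to 2 with 1 library left out. The germ cell markers were 3 to 7 lower with 1 library left out. Chromatin Tudor genes were 1 lower in place of 0 with DESeq2, limma-voom, RLE factors, no filter or halved counts, and 0 higher in place of 1 with totals, at 0.01 or in 4 of the 6 left-out fits (range 0 to 1). Of the 6 single libraries, leaving out Hnrnpl-null replicate 3 gave the most calls over all genes and leaving out Hnrnpl-null replicate 2 the fewest. A stricter threshold leaves fewer calls by construction; the cause of the other changes was not tested.

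Signs changed only for Tdrd6, Tdrd7 and Tdrkh, none of them in a called value. The Tdrd6 log2 fold change was -0.55 with limma-voom, -0.88 (without Hnrnpl-null replicate 3) to 1.02 (without Hnrnpl-null replicate 2) with 1 library left out, and -0.63 without both libraries richest in Rn45s. Relative to Ddx4 and Dazl, leaving out 1 library gave -0.014 to 1.52 for Tdrd6, -0.26 to 0.16 for Tdrd7 and -0.037 to 0.40 for Tdrkh. Without both libraries richest in Rn45s Tdrd7 was at 0.20, and Tdrkh was at -0.035 with all germ cell markers as the reference. Same-numbered libraries showed only weak correlations of deviations (-0.145, 0.126 and -0.0883). With 3 libraries a group, this cannot tell whether the replicate numbers pair them. With the replicate block, 5 of the 8 Tudor genes were lower. Depth limits Tdrd6 (32 and 30 counts a group) and every value from Hnrnpl-null replicate 3.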

Other observations

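RNA granules of oocytes also hold proteins of general mRNA storage and decay, and 2 of 10 such genes were lower and 0 higher by edgeR, with a median log2 fold change of -0.18. Limma-voom called 1 of them higher and DESeq2 called 0 higher. An unadjusted edgeR p below 0.05 was found for 4 of the 10, beside 2746 of all 14849 genes tested. Cpeb1, a translation regulator of stored oocyte mRNAs, fell from 47.3 ± 2.56 to 22.5 ± 2.89 CPM (SD, n = 3 each, edgeR adjusted p = 3.9e-04). Lsm14b, an oocyte-enriched storage protein, fell from 68.4 ± 3.37 to 39.8 ± 3.88 CPM (edgeR adjusted p = 0.0017). Both calls held in each of the 17 alternatives run. Its relative Lsm14a was at 45.9 ± 2.81 and 44.5 ± 3.97 CPM, and the helicase gene Ddx6 at 184 ± 6.59 and 218 ± 24.5 CPM, and neither was called. Dcp1a, a decapping factor, had a log2 fold change of -0.34 and was not called.

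Of 5 endothelial markers, 0 passed the edgeR test and 2 had an unadjusted edgeR p below 0.05, beside 2746 of all 14849 genes tested. DESeq2 and limma-voom each called 1 of these markers lower and 1 higher. The smallest p among them were those of Cdh5, Kdr and Emcn, with log2 fold changes of -0.64, 0.35 and -0.81. Their summed level was 132 to 159 CPM in WT and 144 to 152 CPM in Hnrnpl-null. Of 5 stromal markers 2 were higher, Col1a1 and Dcn, and 0 were higher without Hnrnpl-null replicate 2. Over all genes tested, 2.67% were higher with all libraries. The summed stromal level, 2999 to 3208 CPM in WT and 4620 to 5039 CPM in Hnrnpl-null, was mostly Col1a1, at 2788 ± 115 and 4479 ± 217 CPM. Without Col1a1, a sum formed after its level was seen, it was 321 to 336 and 360 to 389 CPM. Pdgfra, Nr2f2 and Tcf21 were not called, with log2 fold changes of 0.15, -0.04 and -0.16.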
